A study of Mus musculus with 8 samples.

Results

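Homeostatic microglia genes are transcripts by which resting microglia of the healthy brain are recognised, and 9 of them are described here, out of 17001 genes listed for both genotypes. The 9 genes were P2ry12, Tmem119, Cx3cr1, Siglech, Gpr34, Fcrls, Crybb1, Slc2a5 and Csf1r. They were measured in 9549 microglia and 338 border macrophages among 29631 cells. A cell was taken as a microglial cell when its UMIs (unique molecular identifiers, one for each captured transcript) of C1qa, C1qb and C1qc summed to at least 10 and those of Mrc1, Pf4 and Ms4a7 to less than 5. A cell with as many C1q UMIs and at least 5 UMIs of the last 3 genes was taken as a border macrophage, a macrophage of the meninges or perivascular spaces. None of the 9 genes entered these rules. In the Rag1-/- libraries, 7421 cells with a deposited microglia cluster name were described as well.

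Microglia are the resident macrophages of the brain parenchyma. In the resting state they scan the tissue with motile processes, which are steered by purines through P2ry12 and touched by neuronal signals through Cx3cr1, and they depend for survival on the growth factor receptor Csf1r. Transcripts of this resting programme are known to become scarcer when microglia take up myelin or become reactive, so the set is widely used to read microglial state.

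The libraries came from aged mice (24 months) and were made by droplet 3′ single-cell RNA sequencing from dissected gray matter of the frontal cortex and from white matter tracts (corpus callosum, optic tract and medial lemniscus). Wild-type mice, labelled C57BL/6, gave 2 gray and 2 white matter libraries. Rag1 knockout mice, whose strain label was NOD.129S7(B6)-Rag-1tm1Mom/J and which lack mature T and B cells through a germline deletion, gave 1 gray and 3 white matter libraries. That strain label is at odds with the methods and the donor list, which place Rag1-/- and wild-type mice alike on a C57BL/6J background. Per the labels each library combined 2 tissue samples, whereas the donor list names larger pools for the wild-type libraries, so the number of mice per library is uncertain. Actinomycin D was present in all dissociations to hold back transcription after death.

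Deposited totals ran from 4645054 to 57899352 UMIs per library over 584 to 7631 cells. The rule gave 261, 424, 321 and 677 microglia in wild-type gray 1, gray 2, white 1 and white 2, and 1826, 3827, 728 and 1485 in Rag1-/- gray 1, white 1, white 2 and white 3. The microglia carried their defining markers, with Trem2 at 1319 to 2582 and Sall1 at 128 to 441 CPM (UMIs of the gene per 1000000 UMIs summed over the cells). Rag1 itself gave 37 to 108 UMIs in Rag1-/- libraries and 0 to 24 in wild-type ones, but these reads come from the 3′ end of the transcript and do not check a deletion elsewhere in the gene. The T cell gene Cd3d gave 0 to 33 UMIs in Rag1-/- and 39 to 1874 in wild-type libraries.

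By the deposited cell names, both wild-type libraries of batch 1 stood apart before any comparison. In wild-type gray 1 and white 1, 53 cells (20.3%) and 51 cells (15.9%) that met the microglia rule are named oligodendrocytes in the deposited annotation, against 0 in wild-type batch 2 and at most 2 in any Rag1-/- library. The summed level of the oligodendrocyte marker list in the microglia accordingly spanned 3081 to 28560 CPM in wild-type gray and 8360 to 29430 CPM in wild-type white matter, and 2886 CPM in Rag1-/- gray and 4068 to 10400 CPM in Rag1-/- white matter. Results are therefore given with all cells of the rule and again without those cells, an alternative added after the data were seen, which left 208 and 270 microglia in the 2 libraries. In oligodendrocytes themselves the 9 genes lay at 75.1 CPM or less in each library, the highest being Csf1r in wild-type gray 1. This class holds every cell named an oligodendrocyte, so the 53 and 51 cells above are in it as well. Of the 9887 microglia and macrophages, 54 carried a barcode found in more than 1 library.

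In the mouse annotation (GENCODE vM21, GRCm38), all 9 are protein-coding genes. P2ry12 occupies chr3:59216272-59262871 on the minus strand inside Med12l, whose exons it overlaps on the opposite strand. Tmem119 lies at chr5:113793729-113800516 (minus), Siglech at chr7:55768178-55778925 (plus), Fcrls at chr3:87250758-87263738 (minus), Crybb1 at chr5:112255815-112269585 (plus) and Slc2a5 at chr4:150119283-150144169 (plus). Gpr34 lies at chrX:13632089-13640858 (plus) in an intron of Cask, and Cx3cr1 at chr9:119901616-120069879 (minus), where its exons overlap the antisense transcript Gm33858. Exons of Csf1r overlap those of Hmgxb3 on the opposite strand. Each of these exon overlaps is with a transcript on the opposite strand. The strand setting of the counting is not given in the sources used here. Whether reads of the overlapping transcripts entered the counts of P2ry12, Cx3cr1 and Csf1r was not checked.

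Promoter sequences from RefSeq (GRCm38.p6, 250 bases before to 50 after the start) were found for 6 of the 9 genes, and 3 motifs of myeloid or microglial factors were searched in them on both strands. The PU.1 core GAGGAA was present for Siglech and Fcrls and in 28.3% of 32851 promoters of this length. A loose form of the MEF2 motif, CTA and TAG spaced by any 4 bases and the same on both strands, was present for Cx3cr1 and in 3.69% of promoters. The 4 bases between were not limited to A or T, and in Cx3cr1 they include a G. The composite PU.1 and IRF motif, here GGAA and GAAA spaced by 2 bases, was in 2.72% of promoters and in none of the 6. The 30-base windows are shown because they carry the matches, with the motif letters in capitals and each sequence read along the gene:
Fcrls, chr3:87263651-87263680 (minus): caagtctgtaaaGAGGAAggacgtttgctt
Siglech, chr7:55768168-55768197 (plus): tgctgtccctagTTCCTCttctgtgagctg
Cx3cr1, chr9:120068344-120068373 (minus): gtcacagcatCTAAAGATAGggtaccacac
Positions count from the RefSeq start. The first motif base is at -144 in Fcrls, at -4 in Siglech, where the motif is on the other strand, and at -67 in Cx3cr1. The RefSeq starts differ from the GENCODE gene bounds given above, within which the Fcrls and Cx3cr1 windows lie. A match is a run of letters and was not tested as a binding site.

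The first comparison asked how the homeostatic genes differ between white and gray matter of wild-type mice. All 9 genes were lower in white than in gray matter microglia of the same mouse pool, in both wild-type pools and in the Rag1-/- pool, as were 47.6% of all genes tested. The largest ratios belonged to Crybb1, which was 4.33-fold and 4.30-fold lower in white matter of the wild-type pools, and the smallest to Csf1r, at 1.51-fold and 1.57-fold. With all cells of the rule no gene of the set passed the edgeR test (0 of 9), when 0.023% of all genes were called lower. Once the cells named oligodendrocytes were left out, 7 of the 9 passed as lower, beside 1.38% of all genes.

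Among the receptors, P2ry12, which senses ADP and guides microglial processes, was at 1954 and 2940 CPM in wild-type gray 1 and 2 and at 657 and 1060 CPM in white 1 and 2. Both white matter libraries lay below both gray matter libraries, as for 35% of all genes. The fitted level was 2.47-fold lower in white matter, with a log2 difference of -1.30 ± 0.32 SE (adjusted p = 0.164). Gray 1 stood at 2877 CPM and white 1 at 919 CPM once the cells named oligodendrocytes were left out, and the difference passed at -1.29 ± 0.16 SE (adjusted p = 0.00356). Gpr34, a lysophosphatidylserine receptor, was at 1102 and 1740 CPM in gray and 565 and 869 CPM in white matter, again without overlap. Its log2 fold change was -0.78 (adjusted p = 0.370), and -0.74 ± 0.15 SE without those cells (adjusted p = 0.0247).

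Cx3cr1, the receptor of the neuronal chemokine fractalkine, and Csf1r, the receptor of the growth factors CSF1 and IL-34, differed least. Cx3cr1 was at 2922 and 4740 CPM in gray and 1888 and 2860 CPM in white matter. Csf1r was at 1986 and 3315 CPM in gray and 1315 and 2118 CPM in white matter, so that white 2 lay above gray 1. Neither passed in any of these fits, with log2 fold changes of -0.48 for Cx3cr1 and -0.42 for Csf1r (adjusted p = 0.677 and 0.724), and -0.45 and -0.39 without the cells named oligodendrocytes (adjusted p = 0.283 and 0.307).

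Of the surface proteins, Tmem119, a membrane protein of microglia that is largely absent from other macrophages, was at 841 and 1278 CPM in gray and 448 and 599 CPM in white matter. Siglech, a sialic acid-binding lectin, was at 1135 and 1692 CPM against 491 and 655 CPM. Fcrls, an Fc receptor-like scavenger receptor, was at 774 and 1568 CPM against 371 and 607 CPM. None of these 3 genes overlapped between the tissues. Their log2 fold changes were -0.81, -1.10 and -1.06 with all cells, where none passed, and -0.76, -1.05 and -0.997 without the cells named oligodendrocytes, where all 3 did (adjusted p = 0.0208, 0.0374 and 0.0223).

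Crybb1, a beta-crystallin best known from the lens, was at 237 and 445 CPM in gray matter microglia and 54.7 and 103 CPM in white matter microglia. Slc2a5, the fructose transporter GLUT5, was at 201 and 381 CPM against 63.8 and 121 CPM. These were the widest gaps of the set, and the libraries of the 2 tissues stayed apart. The fitted levels were 3.73-fold lower for Crybb1 (-1.90 ± 0.41 SE on the log2 scale, adjusted p = 0.136) and 2.72-fold lower for Slc2a5 (-1.45 ± 0.42 SE, adjusted p = 0.235). With those cells left out Crybb1 stood at -1.87 ± 0.21 SE (adjusted p = 0.0026) and Slc2a5 at -1.41 ± 0.22 SE (adjusted p = 0.00959).

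The counts stand beside those of all genes tested. With all cells, 83 of 13021 genes were called higher in white matter (0.637%) and 3 lower (0.023%), while 1586 had an unadjusted p under 0.05. When the cells named oligodendrocytes were left out, 177 of 12818 genes were called lower (1.38%), and 7 of the 9. The median log2 fold change of the set was -1.06, beside -0.02 over all genes, and it was -0.43 without gray 2 and -1.37 without gray 1. Expression in both white matter libraries below both gray matter libraries was found for 8 of the 9 genes, and for 35% of all genes. With the cells named oligodendrocytes left out it was found for 9 of 9, and for 45.1% of all genes.

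The calls depended on how the mice and the doubted cells were handled. By the donor list, gray and white matter libraries of one wild-type batch came from the same mice, and with the mouse pool as a block edgeR called 5 of the 9 lower: Crybb1 (adjusted p = 0.0059), Slc2a5 (0.00835), P2ry12 (0.02), Siglech (0.0315) and Fcrls (0.047), among 0.614% of all genes called lower, in a fit with 1 residual degree of freedom. With the block and without the cells named oligodendrocytes, 6 were called, against 2.54% of all genes. In the wild-type pair of batch 2 alone the log2 differences were -1.92 for Crybb1 and -1.28 for P2ry12. Leaving out the cells named oligodendrocytes and also 1 wild-type library lowered the number of the 9 that were called. Such a fit leaves 1 library in a group, so no call is drawn from it.

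**Figure D1:**
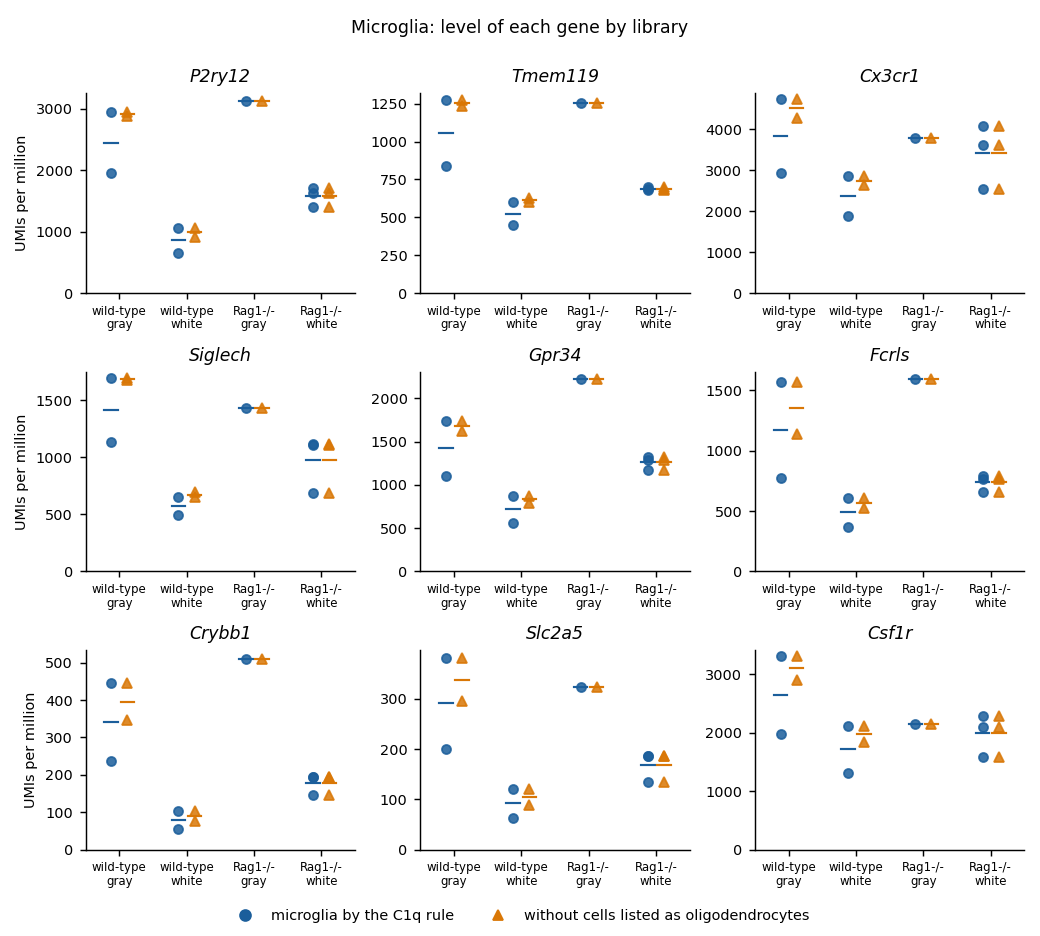
Level of each of the 9 genes in microglia, in CPM on a linear axis from 0, by group of libraries. Each circle is a library with all cells of the C1q rule, each triangle the same library without cells named oligodendrocytes, and the short lines are group means. White matter libraries sit below gray matter libraries for P2ry12, Tmem119, Siglech, Crybb1 and Slc2a5 in both genotypes.

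In Rag1-/- mice the same comparison rested on 1 gray matter library, which was assumed to vary like the other groups. P2ry12 was at 3122 CPM in gray and at 1408, 1717 and 1636 CPM in white 1, 2 and 3. Tmem119 was at 1254 CPM against 688, 679 and 702 CPM, and Gpr34 at 2220 CPM against 1285, 1322 and 1174 CPM. For all 3 genes each white matter library lay below the gray one, as for 51.1% of all genes.

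Siglech was at 1430 CPM in gray and 691, 1111 and 1119 CPM in white matter, and Fcrls at 1591 CPM against 659, 763 and 791 CPM. Crybb1 was at 510 CPM against 147, 195 and 194 CPM, and Slc2a5 at 323 CPM against 134, 186 and 186 CPM. These 4 genes were lower in every white matter library as well, and their lowest value was in white 1, the library of the same pool as the gray one.

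Cx3cr1 and Csf1r went a different way. Cx3cr1 was at 3789 CPM in gray and at 2551, 4091 and 3623 CPM in white matter, and Csf1r at 2144 CPM against 1579, 2293 and 2101 CPM. For both genes white 1 was the lowest library and white 2 lay above the gray library. White 1 belonged to batch 1, like the gray library, and white 2 and 3 to batch 2, so that batch, Cell Ranger version and mouse pool touched this comparison. Within the pool of batch 1, Cx3cr1 was 1.49-fold and Csf1r 1.36-fold lower in white matter.

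No gene of the set passed in Rag1-/- mice with all cells (0 of 9), where 0.131% of all genes were called higher and 0% lower (0 genes, with 763 at an unadjusted p under 0.05). DESeq2 called 133 genes in the same comparison. The largest edgeR log2 fold changes were those of Crybb1 (-1.36 ± 0.43 SE, adjusted p = 0.674), Fcrls (-0.95 ± 0.42 SE) and P2ry12 (-0.82 ± 0.35 SE), with -0.71 for Tmem119, -0.66 for Gpr34, -0.78 for Slc2a5, -0.40 for Siglech, 0.01 for Cx3cr1 and 0.05 for Csf1r. After removal of the cells named oligodendrocytes Crybb1 alone passed (-1.33 ± 0.22 SE, adjusted p = 0.0292), when 0.109% of all genes were called lower, and this call was lost without white 1 or white 3. Crybb1 did not pass when cells with oligodendrocyte or lymphocyte markers were left out instead. With the mouse pool as a block the Rag1-/- estimate rests on 1 gray and 1 white matter library, so no call is drawn from it. Of the 9 genes, 7 were lower in all 3 white matter libraries, as were 51.1% of all genes.

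In each of the 3 pools that held both tissues, Crybb1 had the largest ratio of gray to white matter and Csf1r the smallest. P2ry12 was 2.98-fold, 2.77-fold and 2.22-fold lower in white matter of the 2 wild-type pools and the Rag1-/- pool. Crybb1 was 4.33-fold, 4.30-fold and 3.47-fold lower, Slc2a5 3.15-fold, 3.14-fold and 2.40-fold, and Fcrls 2.09-fold, 2.58-fold and 2.41-fold. The other 5 genes ranged from 1.36-fold to 2.58-fold. For P2ry12, Tmem119, Siglech, Crybb1 and Slc2a5, all 5 white matter libraries lay below all 3 gray matter libraries of both genotypes, as for 16.9% of all genes. With the cells named oligodendrocytes left out, Gpr34 and Fcrls joined them, and 24% of all genes did so.

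**Figure D2:**
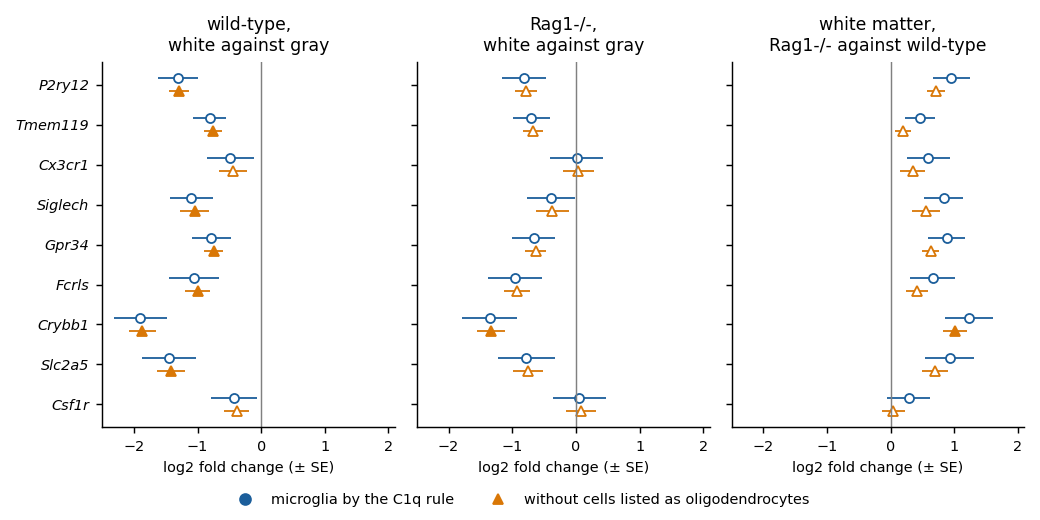
Log2 fold change ± SE of each gene from edgeR, for white against gray matter in wild-type microglia, the same in Rag1-/- microglia, and Rag1-/- against wild-type in white matter. Circles use all cells of the C1q rule and triangles leave out cells named oligodendrocytes, with filled symbols at an adjusted p under 0.05. Filled triangles mark 7 genes in wild-type, and Crybb1 alone in each of the other panels.

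Whether the tissue difference itself depended on the genotype was tested as an interaction. No gene of the set passed, and no gene of all 13021 (0%), although 133 had an unadjusted p under 0.05. The interaction estimates of the 9 genes were positive, from 0.10 for Tmem119 to 0.70 for Siglech, with SEs of 0.40 to 0.63. Their median of 0.49 fell to 0.0061 without wild-type gray 2, where Tmem119, Gpr34, Fcrls and Crybb1 turned negative. Tmem119, Gpr34 and Fcrls were also negative without wild-type white 1. Whether a difference of that size between the genotypes could have been detected at this spread was not tested.

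In white matter, all 9 genes had higher fitted levels in Rag1-/- than in wild-type microglia. The median log2 fold change was 0.83, beside -0.01 over all genes. None passed with all cells (0 of 9, with 0.369% of all genes called higher, 0.177% lower and 1045 genes at an unadjusted p under 0.05). The largest values were those of Crybb1 (1.23 ± 0.38 SE, adjusted p = 0.462), P2ry12 (0.95 ± 0.29 SE, adjusted p = 0.462), Slc2a5 (0.92 ± 0.39 SE) and Gpr34 (0.88 ± 0.28 SE). Siglech followed at 0.83, Fcrls at 0.66, Cx3cr1 at 0.59, Tmem119 at 0.46 and Csf1r at 0.28.

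Per library, P2ry12 in white matter was at 1408 to 1717 CPM in Rag1-/- and 657 to 1060 CPM in wild-type mice, and Crybb1 at 147 to 195 CPM against 54.7 to 103 CPM. The 3 Rag1-/- libraries lay above both wild-type libraries for 7 of the 9 genes, Cx3cr1 and Csf1r being the exceptions, and for 12.5% of all genes (6 of the 9, and 12.7%, with the cells named oligodendrocytes left out). With those cells named oligodendrocytes left out the median was 0.55 and Crybb1 alone passed (1.01 ± 0.20 SE, adjusted p = 0.049), with 0.671% of all genes called higher. That call was lost in 5 of the 8 fits that each left out 1 more library. Crybb1 did not pass here either when cells with oligodendrocyte or lymphocyte markers were left out instead.

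Several measures moved with genotype beside these values. In white matter microglia the summed level of the oligodendrocyte marker list was 8360 to 29430 CPM in wild-type and 4068 to 10400 CPM in Rag1-/- mice, and that of the T cell list 99.6 to 143 CPM against 1.80 to 2.16 CPM. The monocyte list was at 2901 to 2903 CPM against 1739 to 2056 CPM, with Lyz2 alone at 2264 and 2663 CPM against 1675 to 2009 CPM. The neutrophil list was at 3440 to 5631 CPM against 156 to 171 CPM. The hemoglobin list was at 10.2 to 22.1 CPM against 671 to 3759 CPM. The deposited cells reached up to 49480 UMIs in wild-type white matter libraries and 19979 in Rag1-/- ones. Cell Ranger version differed between the genotypes, and also between batch 1 and batch 2 of the Rag1-/- libraries, and cannot be told apart from genotype. The part of the marker lists in these values was not tested.

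In gray matter the single Rag1-/- library was set against 2 wild-type ones, and the median log2 fold change of the set was 0.36 (0.058 without wild-type gray 1 and 0.84 without wild-type gray 2), with none of the 9 called (0.238% of all genes were called higher and 0.0461% lower, 617 at an unadjusted p under 0.05). P2ry12 was at 3122 CPM in the Rag1-/- library, above both wild-type libraries, as were Gpr34, Fcrls and Crybb1. Cx3cr1, Siglech, Slc2a5, Csf1r and Tmem119 lay between the 2 wild-type values. With the cells named oligodendrocytes left out the median was 0.11, and the Rag1-/- library lay below both wild-type ones for Cx3cr1 (3797 against 4289 and 4740 CPM), Siglech (1433 against 1675 and 1692 CPM) and Csf1r (2149 against 2911 and 3315 CPM). P2ry12, Gpr34, Fcrls and Crybb1 stayed above both. The share of all genes that lay above or below both wild-type libraries was not counted, so these positions are description only. The hemoglobin list was at 8265 CPM in Rag1-/- gray and 9.30 to 37.8 CPM in wild-type gray matter microglia. The astrocyte list was at 600 CPM against 959 to 2055 CPM. The part of both lists in these values was not tested.

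Cell by cell, the median summed level of the 9 genes was lower in each white matter library than in each gray matter library. After each cell was thinned to 1500 UMIs, the median microglial cell held 21 and 27 UMIs of the 9 genes in wild-type gray 1 and 2, and 9 and 12 in white 1 and 2. Rag1-/- microglia held a median of 25 in gray and 14, 17 and 18 in white matter. The middle 80% of cells ran from 17 to 37 UMIs in wild-type gray 2 and from 3.5 to 22.5 in white 2. Cells without a UMI of any of the 9 genes made up 0.111% to 2.34% outside wild-type batch 1. In wild-type gray 1 and white 1 they made up 17.5% and 14.9%, and 3.54% and 1.68% without the cells named oligodendrocytes. Thinning left out 10 to 121 shallower microglia per library, and oligodendrocytes had a median of 0.

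**Figure D3:**
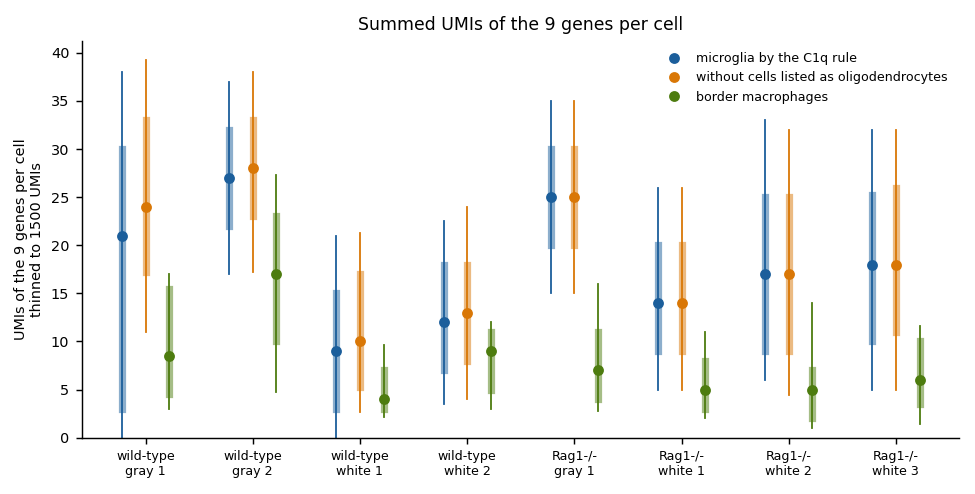
Summed UMIs of the 9 genes per cell after thinning to 1500 UMIs, by library, for microglia, microglia without cells named oligodendrocytes, and border macrophages. Points are medians, thick bars the middle 50% and thin lines the middle 80% of cells. Median microglia of gray matter libraries lie at 21 to 27 UMIs and those of white matter libraries at 9 to 18.

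The share of microglia with at least 1 UMI of P2ry12 was lower in each white matter library than in the gray ones of the same genotype, while the 3 Rag1-/- white matter libraries lay above wild-type gray 1. In thinned cells it was 72.9% and 95.2% in wild-type gray, 49.5% and 62.6% in wild-type white, 96.5% in Rag1-/- gray and 76.3%, 74.2% and 77.6% in Rag1-/- white matter. Wild-type gray 1 was at 89.9% without the cells named oligodendrocytes, above the 73.0% to 79.2% of the Rag1-/- white matter libraries. Thinning was drawn anew for that set of cells. The Rag1-/- white matter shares therefore shifted although at most 1 cell per library was left out there. For Crybb1 it was 33.5% and 44.0%, 9.34% and 14.0%, 47.5%, and 18.5%, 23.6% and 24.9% in that order. Wild-type means were 38.7% ± 7.46 in gray and 11.7% ± 3.31 in white matter (SD, n = 2 each) for Crybb1, and 72.9% and 31.5% before thinning. In thinned oligodendrocytes, where the genes should be absent, P2ry12 was found in 0.245% to 8.45% of cells, at a median depth of 8669 to 12534.5 UMIs before thinning against 5765 to 8602 UMIs in microglia. The 8.45% was in wild-type gray 1, where 53 of the 284 oligodendrocytes also met the microglia rule. An exact two-sided permutation test over libraries gave p = 0.333 for the wild-type tissues for P2ry12 and for Crybb1, which is the smallest p that 2 against 2 libraries allow, and p = 0.2 for white matter between genotypes, the smallest that 3 against 2 allow.

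The deposited cluster names of the Rag1-/- microglia show where the transcripts were held. The clusters were drawn from the expression of these and other genes, so their levels are a description without a test. The annotation named 3244 cells Homeostatic1, 2597 Homeostatic2, 1180 WAM (white matter-associated microglia), 326 Activated and 74 IRM (interferon-responsive microglia), and 7277 of the 7421 cells also met the C1q rule. Homeostatic1 held 94.3% of the gray matter microglia and 21.7%, 35.1% and 42.3% of those in white 1, 2 and 3. WAM held 1.56% in gray and 22.1%, 17.1% and 17.1% in white matter, and Homeostatic2 1.67% and 52.1%, 31.8% and 33.6%.

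All 9 genes were highest in Homeostatic1 in each library, except Crybb1 in gray matter, where the 27 Activated cells gave 571 CPM and Homeostatic1 546 CPM. In white 1, 2 and 3, P2ry12 was at 3280, 3043 and 2973 CPM in Homeostatic1, at 1431, 1455 and 1417 CPM in Homeostatic2 and at 539, 563 and 513 CPM in WAM. The clusters were far apart beside the spread between libraries. Slc2a5 was at 345, 349 and 361 CPM in Homeostatic1 and 39.5, 26.5 and 43.0 CPM in WAM. Crybb1 was at 412, 385 and 409 CPM in Homeostatic1, 115, 119 and 106 CPM in Homeostatic2 and 64.5, 33.1 and 39.1 CPM in WAM.

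White matter WAM were lower than Homeostatic1 by very different factors. Slc2a5 was 9.70-fold, Crybb1 8.87-fold and P2ry12 5.75-fold lower (mean ratio of 3 libraries), Tmem119 4.13-fold and Siglech 4.07-fold. Gpr34 was 2.62-fold, Cx3cr1 2.14-fold, Fcrls 2.00-fold and Csf1r 1.87-fold lower. The transporter, the crystallin and the ADP receptor thus had the steepest gradients, and Cx3cr1, Fcrls and Csf1r the shallowest.

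The remaining clusters had other profiles. In Activated cells of white matter Cx3cr1 was 4.40-fold below Homeostatic1 by the mean ratio, with 1266, 1031 and 852 CPM against 3693, 5815 and 5262 CPM. Slc2a5 was 4.01-fold and P2ry12 3.85-fold lower, and the order of these 3 genes changed between libraries. Crybb1 and Csf1r were reduced only 1.83-fold and 1.82-fold there. Fcrls was about as low in Homeostatic2 as in WAM, at 565, 539 and 607 CPM and 597, 638 and 628 CPM against 1328, 1133 and 1300 CPM in Homeostatic1. IRM had enough cells for a sum in 1 library only (37 cells of white 1), where P2ry12 was at 974, Crybb1 at 69.8, Cx3cr1 at 2198 and Fcrls at 445 CPM.

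Within Homeostatic1 the tissues differed less than in the sums for P2ry12, Tmem119, Gpr34, Fcrls, Crybb1 and Slc2a5. There the white matter mean over 3 libraries was 3099 ± 161 CPM (SD) for P2ry12 against 3356 CPM in gray, and 352 ± 8.22 CPM against 347 CPM for Slc2a5. Fcrls and Crybb1 kept the largest gap, 1.35-fold and 1.36-fold lower in white matter, with all 3 white libraries below the gray one. Cx3cr1, Siglech and Csf1r had higher white matter means in Homeostatic1, although white 1 was below the gray library for each of them. In Homeostatic2, with 29 gray matter cells, all 3 white libraries lay above the gray one for Cx3cr1 and Csf1r, at 1.39 and 1.23 times its level, and below it for the other 7 genes. The 27 WAM of gray matter held more of every one of the 9 genes than WAM of white matter, from 1.19-fold for Csf1r and 1.31-fold for Cx3cr1 to 4.51-fold for Slc2a5 and 5.88-fold for Crybb1. P2ry12 was at 1821 CPM in gray matter WAM. With 1 gray matter library none of these differences has a replicate check. The share of all genes that did the same within these clusters was not counted. Cells were grouped into the clusters by the expression of these and other genes. A smaller gap within a cluster is therefore no test of the tissue difference.

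**Figure D4:**
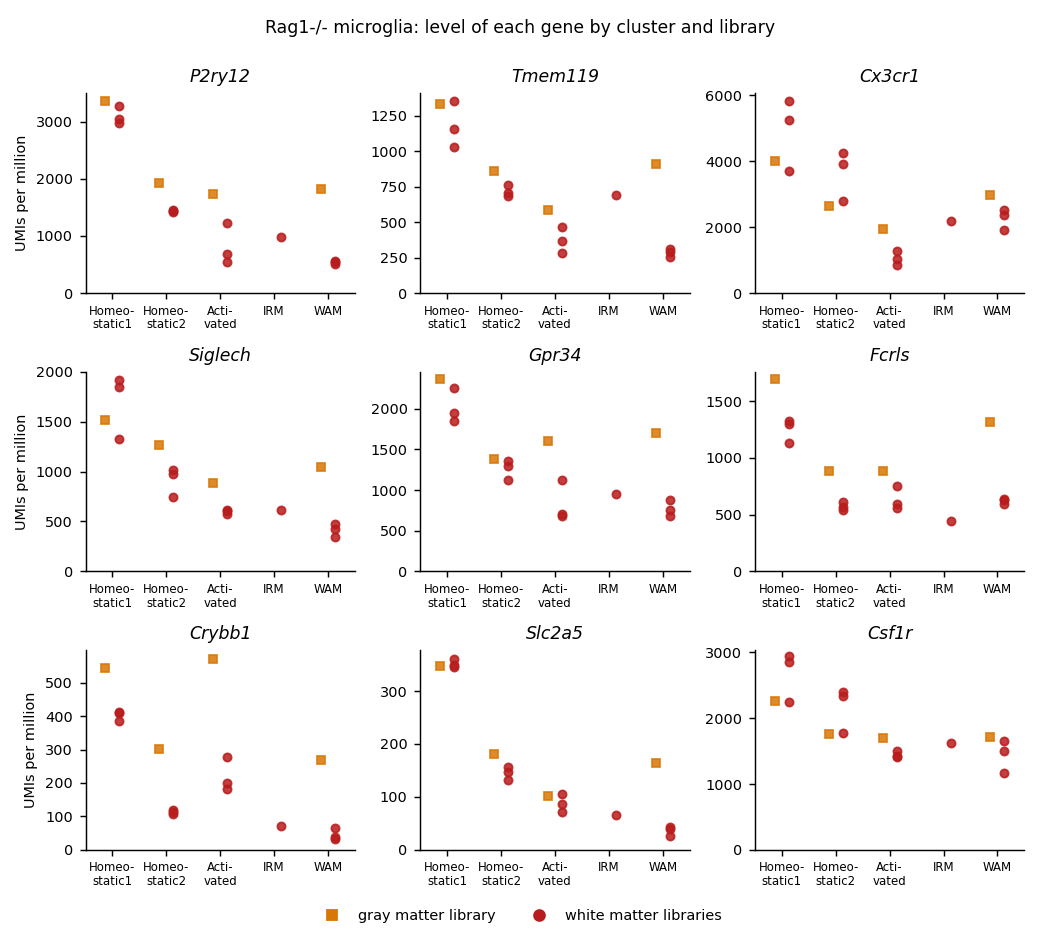
Level of each gene in the deposited microglia clusters of Rag1-/- mice, in CPM on a linear axis from 0, for sums of at least 20 cells. Squares are the gray matter library and circles the 3 white matter libraries. The genes are highest in Homeostatic1, other than Crybb1 in gray matter, and in WAM the gray matter square lies above the white matter circles.

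Over the 17 sums of a cluster and a library, the genes tracked each other to different degrees. As a description over sums that share libraries and depth, the log2 level of P2ry12 had a Pearson correlation of 0.98 with the mean of the other 8, Siglech 0.96, Slc2a5 0.95, Gpr34 0.95 and Tmem119 0.93. Csf1r (0.81), Fcrls (0.77), Crybb1 (0.73) and Cx3cr1 (0.63) followed less closely. Among 5860 other genes with a mean of at least 20 CPM, the 10 most like the mean of the set were Lrba (0.96), Maf (0.96), Pde3b, Cd164, Bank1, Pik3cg, Fam102b, Selplg, Pmepa1 and St3gal6 (0.94).

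Microglia were next set against border macrophages of the same library, the other resident macrophages of the brain, which share ancestry and many receptors with microglia. The 8 libraries gave 13 to 93 border macrophages each, with Mrc1 at 427 to 3182 and Pf4 at 226 to 2687 CPM. Both genes belong to the class rule, so their levels are no check of the class. Outside the rule, Cd163 was at 57.2 to 399 CPM and Lyve1 at 0 to 482 CPM in the class. Among the 224 Rag1-/- cells, 53 carry a microglia cluster name in the deposited annotation, and the part of microglial transcripts in this class was not tested. Sall1, a transcription factor of microglia, was at 0 to 294 CPM in the class.

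Of the 9 genes, 7 were higher in microglia, against 3.53% of 9372 genes called higher and 5.83% called lower. P2ry12 was 3.99-fold higher (log2 fold change 2.00 ± 0.28 SE, adjusted p = 0.00034), Slc2a5 3.83-fold (1.94 ± 0.32 SE, adjusted p = 0.00132) and Tmem119 3.67-fold (1.88 ± 0.36 SE, adjusted p = 0.00355). Crybb1 was 3.11-fold higher (adjusted p = 0.00211), Siglech 2.94-fold (adjusted p = 0.000242), Gpr34 2.64-fold (adjusted p = 0.00131) and Cx3cr1 1.61-fold (adjusted p = 0.0177). Csf1r did not pass (log2 fold change 0.32 ± 0.13 SE, adjusted p = 0.142), nor did Fcrls (-0.08 ± 0.11 SE, adjusted p = 0.794).

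Fcrls was at 364 to 1306 CPM in border macrophages and 371 to 1591 CPM in microglia, and microglia held 0.847 to 1.40 times the macrophage level in single libraries, more in 4 of 8. Tmem119 ranged from 1.46-fold to 24.2-fold in favour of microglia, the highest resting on 4 UMIs in 24 border macrophages of Rag1-/- white 2. P2ry12 ranged from 1.60-fold to 12.3-fold, Siglech from 1.56-fold to 6.37-fold and Gpr34 from 1.38-fold to 9.41-fold. The highest P2ry12 ratio rested on 38 UMIs in 40 border macrophages of Rag1-/- white 3. That of Gpr34 rested on 20 UMIs in the 24 of white 2. Microglia were higher in every library for P2ry12, Tmem119, Siglech, Gpr34, Crybb1 and Slc2a5, as for 8.95% of all genes, and in 7 of 8 for Cx3cr1 and Csf1r.

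Border macrophages of wild-type gray 2 held the most P2ry12, 1837 CPM with 78% of 50 cells positive, while those of the 3 Rag1-/- white matter libraries held 134 to 243 CPM. In the same cells of wild-type gray 2 the summed list of 30 microglial identity genes was at 47180 CPM, against 16340 to 35540 CPM in the border macrophages of the other libraries. The 20 border macrophage markers summed to 9596 CPM there, against 8772 to 28110 CPM. The part of these in the P2ry12 level was not tested. Crybb1 had 0 UMIs in the 13 border macrophages of wild-type white 1 and Slc2a5 had 0 in the 24 of Rag1-/- white 2, which allows up to 23.2 and 21.1 CPM at 3 counts. In microglia without the cells named oligodendrocytes Csf1r passed as well (0.45 ± 0.11 SE, adjusted p = 0.0103, with 5.48% of all genes called higher) and Fcrls did not (0.03, adjusted p = 0.935). Without the library as a block 3 of the 9 passed, against 1.22% of all genes called higher.

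**Figure D5:**
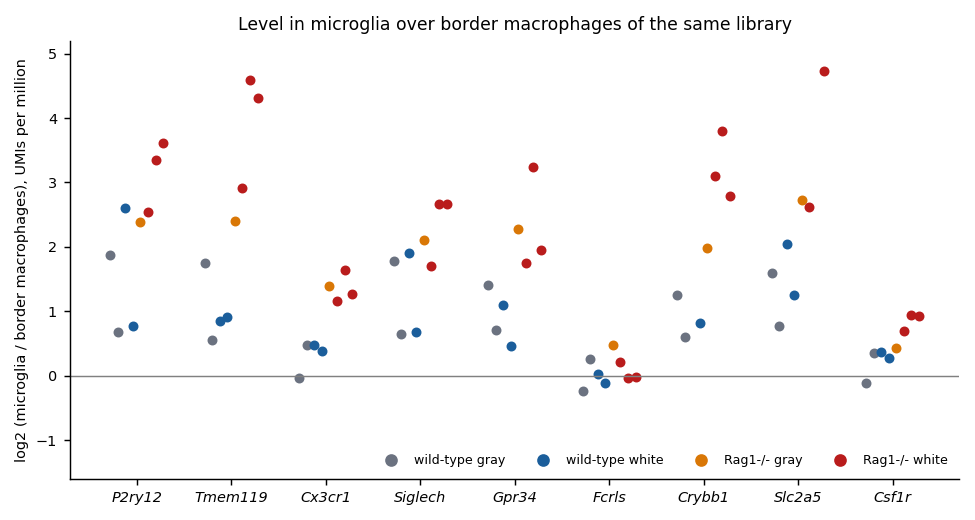
Log2 ratio of the level in microglia to that in border macrophages of the same library, in CPM, for each gene; each point is 1 library, coloured by tissue and genotype. Points of P2ry12, Tmem119, Siglech, Gpr34, Crybb1 and Slc2a5 all lie above 0, those of Fcrls scatter around 0, and Crybb1 and Slc2a5 lack 1 library each, where border macrophages had 0 UMIs.

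Other genes were read from lists around the set. Of 30 further microglial identity genes, none passed between the wild-type tissues with all cells, where their median log2 fold change was -0.47 beside -0.02 over all genes. With the cells named oligodendrocytes left out, 8 of 30 were lower in white matter and none higher, against 1.38% of all genes lower and 3.72% higher. The steepest were Entpd1, the ectoenzyme CD39 that breaks down ATP and ADP (-1.04 ± 0.16 SE, adjusted p = 0.00951), Ltc4s, leukotriene C4 synthase (-0.96 ± 0.16 SE, adjusted p = 0.0131), Sall1 (-0.94 ± 0.16 SE, adjusted p = 0.0131) and P2ry13, another ADP receptor (-0.82 ± 0.15 SE, adjusted p = 0.0168). In Rag1-/- mice none of the 30 passed with or without those cells. Against border macrophages 21 of 30 were higher in microglia, where 3.53% of all genes were, led by Sparc (2.60 ± 0.40 SE), Selplg (1.90 ± 0.27 SE), Sall1 (1.77 ± 0.32 SE) and Golm1 (1.68 ± 0.26 SE).

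Ligands, transducers and regulators of the 9 genes form a list of 28, of which 26 were tested between tissues. With all cells none passed in either genotype. With those cells left out, 25 were tested in wild-type microglia, of which 2 were higher in white matter, Csf1, a ligand of Csf1r (1.63 ± 0.18 SE, adjusted p = 0.00256), and Tyrobp, an adaptor of activating receptors (0.74 ± 0.16 SE, adjusted p = 0.032), and 3 were lower, Entpd1, Sall1 and P2ry13. Of all genes 3.72% were higher and 1.38% lower in that fit. In Rag1-/- mice Csf1 alone passed (2.41 ± 0.21 SE, adjusted p = 0.00216), where 0.788% of all genes were higher and 0.109% lower. With all cells Csf1 stood at 58.5 and 19.3 CPM in wild-type gray 1 and 2 and 74.0 and 59.3 CPM in white 1 and 2, so that gray 1 lay just under white 2, and at 11.5 CPM in Rag1-/- gray and 46.4 to 55.7 CPM in white matter. The fractalkine gene Cx3cl1 stood at 0 CPM in all 4 wild-type libraries and at up to 0.636 CPM in Rag1-/- ones.

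The genes of disease-associated microglia that passed between tissues were all higher in white matter, while none of the homeostatic genes passed with all cells. Of 23 tested, 11 were higher in wild-type white matter with all cells and 21 without the cells named oligodendrocytes, and 5 and 14 were in Rag1-/- mice, with none lower. The shares of all genes called higher in these 4 fits were 0.637%, 3.72%, 0.131% and 0.788%. Spp1, which encodes osteopontin, was at 0.461 and 0.443 CPM in wild-type gray and 699 and 752 CPM in white matter, and at 2.82 CPM in Rag1-/- gray and 450 to 589 CPM in white matter. Lpl, lipoprotein lipase, was at 0.461 and 6.86 CPM against 314 and 377 CPM in wild-type mice. Gpnmb and Igf1 had 0 CPM in both wild-type gray matter libraries and lay at 25.1 to 25.6 and 35.1 to 39.4 CPM in white matter. Of 20 interferon response genes, 1, Ifi204, was higher in wild-type white matter with all cells and 8 without those cells, beside 0.637% and 3.72% of all genes, and none passed in Rag1-/- mice.

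Markers of other cells moved with tissue as well. The summed astrocyte list was at 959 to 2055 CPM in wild-type gray and 230 to 346 CPM in wild-type white matter microglia, and the monocyte list at 494 to 557 CPM against 2901 to 2903 CPM. Lyz2 made up most of the monocyte list, at 332 and 460 CPM in wild-type gray and 2264 and 2663 CPM in white matter. The monocyte markers Ccr2, Ly6c2 and Plac8 were at 42.1 CPM or less in every library. The list of border macrophage markers was at 1439 to 2040 CPM in wild-type gray and 2869 to 3397 CPM in white matter, with Cd163 at 0 to 3.15 CPM over all 8 libraries. Mrc1, Pf4 and Ms4a7 of that list were held low by the class rule. The T cell list was at 1.33 to 55.3 CPM in wild-type gray and 99.6 to 143 CPM in white matter, the NK cell list at 0.443 to 36.0 against 44.3 to 61.3 CPM, and the neuron list at 15.9 to 18.0 against at most 6.16 CPM. In Rag1-/- mice the hemoglobin list was at 8265 CPM in gray and 671 to 3759 CPM in white matter. The monocyte list was at 486 against 1739 to 2056 CPM there, with Lyz2 alone at 429 against 1675 to 2009 CPM. The neuron list was at 50.6 against 10.6 to 34.0 CPM. In the same mice the astrocyte list was at 600 against 234 to 441 CPM. The border macrophage list was at 1997 against 2520 to 2824 CPM, and the neutrophil list at 451 against 156 to 171 CPM. Their part in the tissue differences of the 9 genes was not tested.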

How the data were processed

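Single-cell RNA was measured in 8 libraries of 24-month-old mice. The deposited matrices hold UMI counts per gene and cell, which the authors made with Cell Ranger and filtered for cells. The submitters' processing notes name version 4 and build mm10, while the methods give a different version for the wild-type libraries and for each Rag1-/- batch. Wild-type and Rag1-/- cells passed different upper limits on UMIs. Cluster names came from the deposited microglia annotation, in which 8171 cells of 4 libraries from elsewhere were not used.

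Counts were summed per library over microglia or border macrophages and tested with edgeR 4.0.16 (R 4.3.3, quasi-likelihood test, TMM scaling, low counts filtered, all 8 libraries in a single fit with 4 groups, two-sided, Benjamini-Hochberg adjustment over all genes tested, threshold 0.05), after tests on simulated data. The comparison of cell classes had the library as a block. SEs are the log2 fold change over the square root of F. DESeq2 1.42.0 was an alternative. Shares of cells were compared in Python 3.11.15 (scipy 1.17.1) with exact permutation tests over libraries, after thinning to 1500 UMIs. No doublet caller was run; cells with markers of oligodendrocytes or lymphocytes were left out in an alternative.

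All 9 genes were named in each comparison. Genes of a list were named where called, at most 4 per list and comparison, and some for their levels in CPM alone. The members and lists were chosen with earlier results of these data known. Gray and white matter of a wild-type batch came from the same mice according to the donor list. Their deviations from the group means correlated at r = 0.526 over 13021 genes. With 2 libraries per group both pairs give the same r, and each wild-type pool is also a batch. The r therefore cannot separate shared mice from batch. Libraries pooled mice, so p-values measure the spread between such pools. Floors for genes without a UMI cover counting error only, whereas the SEs come from the same fits as the p-values.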

Additional observations from a re-analysis of the deposited data

How the results depend on the processing

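Of 1161 values of the 9 genes under alternatives, 1008 kept their direction and side of the threshold, 101 newly passed it, 8 no longer passed, 42 reversed and 2, shares of cells with Crybb1 before thinning, moved by more than 1 SD, where the cause was not tested. Between wild-type tissues edgeR called 86 genes and 0 of the 9, against 692 and 7 with a C1q limit of 20 UMIs, 792 and 7 with C1q at 0.2% of UMIs, 418 and 5 without cells with oligodendrocyte or lymphocyte markers, 654 and 7 without the cells named oligodendrocytes, and 392 and 3 with DESeq2, and 1 of the 9 without the libraries of wild-type batch 1. With the mouse pool as a block the calls were 280 and 5, and with the block and without the cells named oligodendrocytes 1044 and 6. In Rag1-/- mice 17 genes and 0 of the 9 were called, against 6 genes with library size alone, 145 and 1 (20 UMIs), 162 and 3 (0.2%), 124 genes without cells with those markers, 115 and 1 without the cells named oligodendrocytes, 56 genes in the deposited microglia and 133 genes with DESeq2. The block, which there rests on 1 gray and 1 white matter library and supports no call, gave 67 and 1, and 268 and 2 without the cells named oligodendrocytes, and the Rag1-/- differences of Cx3cr1 and Csf1r were then -0.42 and -0.29, and -0.39 and -0.26 without those cells. In white matter between genotypes 71 genes and 0 of the 9 were called, against 148 and 1 (20 UMIs), 178 and 2 (0.2%), 141 and 1 without the cells named oligodendrocytes, 194 genes with DESeq2, 30 without the 2 Rag1-/- libraries of batch 1 and 0 without those of batch 2. In gray matter 37 genes were called, against 64 (20 UMIs), 64 (0.2%), 63 without the cells named oligodendrocytes and 71 with DESeq2. Without the library block 394 genes and 3 of the 9 differed between microglia and border macrophages, against 877 and 7. The alternatives without the cells named oligodendrocytes and without a batch were chosen after seeing the data. Library size alone moved the median log2 fold change of all genes from -0.02 to -0.24 in wild-type and -0.18 in Rag1-/- mice, and Cx3cr1 and Csf1r in Rag1-/- mice then stood at -0.15 and -0.11. The reversed gray matter differences between genotypes were, for Cx3cr1, -0.016 (library size), -0.19 (20 UMIs), -0.21 (0.2%), -0.19 (markers) and -0.14 (named cells), for Siglech -0.18, -0.19, -0.22 and -0.12 in the last 4 of these, and for Slc2a5 -0.0049 and -0.020 with the C1q limits. Csf1r between genotypes in white matter was -0.075 without cells with those markers and -0.041 without the Rag1-/- libraries of batch 2, and Fcrls against border macrophages was 0.0096 without a filter on low counts, 0.016 without cells with oligodendrocyte markers and 0.034 without the named cells. With 1 library left out, calls ranged over 17 to 80 genes between wild-type tissues, 1 to 57 in Rag1-/- mice and 32 to 138 in white matter, with 0 of the 9 in each, 9 to 35 genes in gray matter and 527 to 916 against border macrophages. With 1 library and also the cells named oligodendrocytes left out, they ranged over 94 to 620 genes and 2 to 7 of the 9, 71 to 126 and 0 to 1, and 78 to 186 and 0 to 1 in the first 3 of these. Reversals with 1 library left out, with or without those cells, gave ranges of -0.54 to 0.27 for Csf1r, -0.24 to 0.54 for Cx3cr1, -0.16 to 0.50 for Siglech and -0.16 to 0.85 for Slc2a5 between genotypes in gray matter, -0.088 to 0.66 for Csf1r in white matter, -0.80 to 0.045 for Csf1r between wild-type tissues, -0.060 to 0.22 for Csf1r and -0.13 to 0.21 for Cx3cr1 in Rag1-/- mice, and, for the interaction, -0.042 to 1.08 for Crybb1, -0.55 to 0.57 for Fcrls, -0.30 to 0.46 for Gpr34 and -0.28 to 0.42 for Tmem119.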

Other observations

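Ranges of the summed lists that belong to other cells, in microglia, are given as values. The neutrophil list stood at 293 to 4323 CPM in wild-type gray and 451 CPM in Rag1-/- gray matter microglia. The endothelial list stood at 376 to 498 CPM in wild-type gray, 416 to 510 in wild-type white, 515 in Rag1-/- gray and 442 to 516 CPM in Rag1-/- white matter. Of the border macrophage markers, 17 of 17 tested were lower in microglia than in border macrophages, as the class rule required for 3 of them, where 5.83% of all genes were lower, with Cd163 at -9.46 and Cbr2 at -8.66 on the log2 scale. Of 20 immediate-early genes, which mark transcription during dissociation, 1 (Egr1) was higher in wild-type white matter with all cells, where 0.637% of all genes were, and none passed in Rag1-/- mice. Without the cells named oligodendrocytes 5 of 19 tested were higher in wild-type white matter (Egr1, Klf2, Ccl3, Ccl4 and Atf3) and 4 in Rag1-/- white matter (the same without Klf2), against 3.72% and 0.788% of all genes.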
